A study of Bos taurus with 8 samples.

Results

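The matrix metalloproteinases MMP1, MMP2, MMP3 and MMP14, the proteases ADAMTS1 and ADAMTS5, and the inhibitors TIMP2 and TIMP3 were followed in cells of bovine muscle, from the freshly digested tissue through 8 passages of serum-free culture. Genes were taken by symbol, from a list that was set with earlier results of these data known. Of 9 symbols sought, 8 stood among the 21880 genes of the count tables, and TIMP1 was not analysed here. Single-cell RNA of 36129 cells was measured with the 10x Chromium 3′ assay at 5 timepoints, with 1 library per timepoint: freshly digested muscle, passage 0 after 72 h, and then passage 2, passage 5 and passage 8. The series lists 2 samples, as runs, for each of passages 0, 2 and 5, and the counts used stand with the first run. Whether they also hold reads of the second run was not examined. The cells came from 10 Belgian Blue cattle (5 calves and 5 adults, 3 of them males), pooled before capture and told apart by genotype, and donor 3 was present in muscle alone.

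All cells had passed through collagenase digestion of semitendinosus muscle. At passage 0, by the study's methods, the donors' cells were grown unsorted on fibronectin in serum-free growth medium, whereas the sample labels of this timepoint name SCs and FAPs beside unsorted cells. From passage 2 each donor stood for 1 kind of culture in the same medium: FAP cultures on collagen I (donors 4, 7 and 8), SC cultures on laminin-521 (donors 5, 6 and 10) and unsorted cultures on fibronectin (donors 1, 2 and 9). Culture kind, coating and donor therefore cannot be told apart, and neither can timepoint and library. Cell types are the study's labels: SCs are satellite cells, FAPs fibro-adipogenic progenitors, VECs and LECs endothelial cells of blood and lymph vessels, and SMMCs smooth muscle and mesenchymal cells, beside monocytes/macrophages and lymphocytes. The labels were set from expression in the same cells, so comparisons between types describe cells so labelled.

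These enzymes are zinc proteases that cut the extracellular matrix. MMP1 is an interstitial collagenase, MMP3 a stromelysin that can activate other pro-MMPs, MMP2 a gelatinase, and MMP14 a membrane-bound MMP that, together with TIMP2, activates pro-MMP2 at the cell surface. ADAMTS1 and ADAMTS5 cut proteoglycans such as aggrecan and versican. TIMPs inhibit MMPs, TIMP2 being a soluble inhibitor and TIMP3 a matrix-bound one that also inhibits several ADAM and ADAMTS enzymes. In muscle they are known for matrix turnover around fibres and for the migration of satellite cells. mRNA is measured here, and neither protein nor activity.

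Cells per library ranged from 2772 to 10405 and the median unique molecular identifiers (UMIs) per cell from 4184 in muscle to 27239.5 at passage 2. Levels are CPM, the UMIs of a gene in a donor's cells of 1 type scaled to the same library total for every group of cells, given as mean ± SD over donors with at least 10 cells of that type. UMIs at 3′ ends are not scaled by gene length, so levels are compared for each gene across cells and not between genes. 129 cell barcodes occurred in more than 1 library. The labels were checked against markers. FAPs of muscle held 22030 CPM of the FAP markers PDGFRA, DCN and LUM together, against 236 in SCs, and muscle fibre markers summed to 194 to 876 CPM in FAPs, SCs, VECs, LECs, SMMCs and monocytes/macrophages. At passage 0 the monocytes/macrophages held 1201 CPM of their own markers, 3516 CPM of neutrophil markers and 1333 CPM of the FAP markers, the last against 3504 CPM in FAPs. The neutrophil sum is over S100A8, S100A9, CSF3R and CXCR2. CSF3R went the other way, with 43 UMIs in muscle monocytes/macrophages and 0 at passage 0 in the donors compared. The study reports that neutrophils did not persist in culture.

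In muscle the proteases and inhibitors were spread over different cell types, and MMP1 and MMP3 were close to absent. No MMP1 UMI was counted in any cell type, where 3 counts would have been 0.388 CPM in FAPs, 0.733 in VECs, 1.07 in SCs and 1.16 in monocytes/macrophages. MMP3 had 4 UMIs in LECs, 2 in lymphocytes and 0 elsewhere. Among the types named above, FAPs held the highest mean of MMP2, MMP14, ADAMTS5 and TIMP2, VECs that of ADAMTS1, and SMMCs that of TIMP3. Tenocytes, glial cells and myocytes had too few cells for a mean in every donor, and neutrophils in all but donor 4. Pooled over donors, the genes followed here summed to 2847 CPM in tenocytes (404 UMIs) and 2398 in FAPs. MMP2 made up 35.1% of this sum in tenocytes and 32.6% in FAPs, and TIMP2 48.8% and 47.0%. Both thus lay higher in these tenocytes, while MMP14 (1.73% against 2.77%) and ADAMTS5 (0.495% against 4.90%) lay lower. When every cell was thinned to 2000 UMIs and the share of cells with a UMI was taken, the highest type moved to LECs for MMP14 and TIMP3 and to SMMCs for ADAMTS1.

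**Figure D1:**
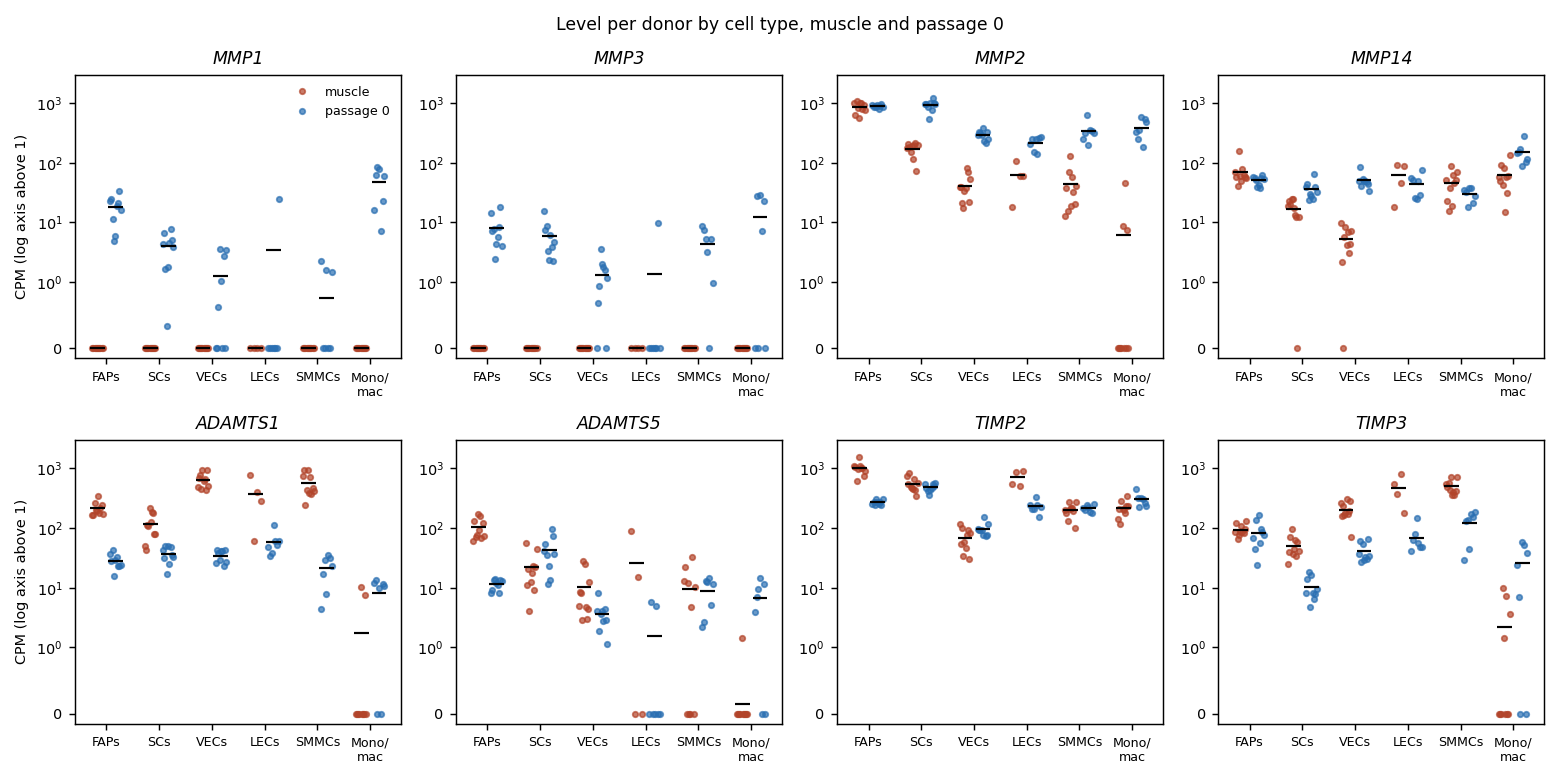
Level of each gene (CPM, y axis, logarithmic above 1) in each cell type (x axis) for every donor in muscle (red) and at passage 0 (blue), with the mean as a black line. MMP1 lies at 0 in the muscle donors and above it in all FAP donors of passage 0, whereas the ADAMTS1 mean is lower at passage 0 in FAPs, SCs, VECs, SMMCs and LECs.

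For MMP2 the 10 donors' FAPs in muscle ranged from 570 to 1083 CPM, with a median of 888. SCs ranged from 73.5 to 214, with a median of 188, and the groups did not overlap. Below SCs came LECs at 61.4 ± 36.6 (n = 4), SMMCs at 43.3 ± 35.0, VECs at 41.2 ± 21.1, lymphocytes at 22.9 ± 29.5 and monocytes/macrophages at 6.13 ± 14.1 (n = 10 each). The ranges of those neighbours overlapped. MMP14, the partner of MMP2 at the cell surface, was spread differently: 68.6 ± 32.2 CPM in FAPs, 62.0 ± 34.3 in monocytes/macrophages, 61.2 ± 35.9 in LECs, 46.1 ± 23.2 in SMMCs, 16.7 ± 7.52 in SCs and 5.19 ± 3.01 in VECs, each overlapping the next.

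The proteoglycan-cutting enzymes differed in where they were found. ADAMTS1 was highest in vessel-associated cells, at 649 ± 187 CPM in VECs, 564 ± 245 in SMMCs and 376 ± 295 in LECs, against 214 ± 55.6 in FAPs, 118 ± 59.7 in SCs and 1.75 ± 3.74 in monocytes/macrophages. ADAMTS5 was highest in FAPs, from 60.5 to 171 CPM with a median of 84.8, and SCs ranged from 4.13 to 56.4 with a median of 19.1, so that these groups did not overlap.

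The inhibitors were highest in different types. TIMP2 stood at 995 ± 241 CPM in FAPs, 705 ± 208 in LECs, 555 ± 148 in SCs, 214 ± 64.6 in monocytes/macrophages, 199 ± 53.9 in SMMCs and 69.3 ± 29.1 in VECs. TIMP3 stood at 498 ± 134 in SMMCs, 476 ± 267 in LECs, 202 ± 70.2 in VECs, 94.0 ± 20.9 in FAPs, 50.9 ± 21.0 in SCs and 2.20 ± 3.54 in monocytes/macrophages. SMMCs and LECs overlapped for TIMP3, as did FAPs and LECs for TIMP2.

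FAPs and SCs of muscle were compared directly, donor by donor sums with edgeR's quasi-likelihood test, a gene being called at a Benjamini-Hochberg adjusted p below 0.05 over all genes tested with an absolute log2FC above 1. A gene enters the test when enough donors reach a minimum level, and where no donor of the lower group reached it the gene had to differ, so that such a member is given by its levels, with no p and outside the counts. The shares of all genes called, here and below, keep such genes. Counts that leave members out are thus not counted like the share beside them. Of the other 5 members measured, 3 were called, all higher in FAPs, where 19.9% of all genes tested were called. MMP14 passed the filter through FAPs alone and was higher in them in 10 of 10 donors. MMP2 had a log2FC of 2.36 ± 0.15 (SE; adjusted p = 1.64e-13, higher in 10 of 10 donors), ADAMTS5 2.38 ± 0.32 (9.43e-07, 10 of 10) and TIMP3 1.02 ± 0.19 (3.96e-05, 8 of 10). With library size scaling alone TIMP3 had a log2FC of 0.94 and was no longer called. ADAMTS1 (0.88 ± 0.22) and TIMP2 (0.93 ± 0.16) differed by less than the limit of 1, with adjusted p-values of 0.00163 and 2.37e-05. TIMP2 passed the limit with no filter on low counts (1.03), and ADAMTS1 when thinned to equal counts (1.22, adjusted p = 0.0125).

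After 72 h in culture the cells had a different set of these mRNAs. MMP1 and MMP3, at 0 UMIs in muscle FAPs, SCs and monocytes/macrophages, stood above the limit of 3 counts in those types, MMP2 was higher in each of them except FAPs, ADAMTS1 was lower in each of the 5 where it was tested, and TIMP3 was lower in SCs, VECs, SMMCs and LECs. The comparison sets sums per donor at passage 0 against those of muscle for each cell type. Its fits are unpaired, with the donor as a block as an alternative, and each timepoint is a single library.

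**Figure D2:**
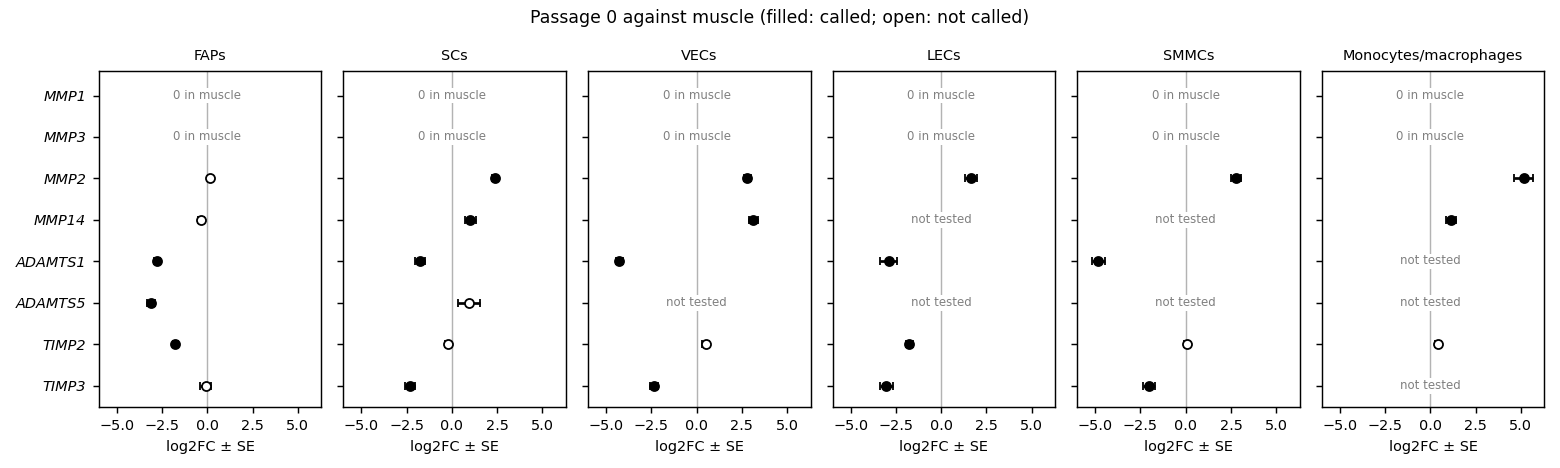
log2FC of passage 0 against muscle (x axis) with its standard error for each gene (y axis) in 6 cell types. Filled points were called and open points were not; genes with no UMI in the muscle donors compared are written as 0 in muscle, since a fitted fold against 0 has no bound, and genes under the filter on low counts as not tested. MMP2 lies right of 0 and ADAMTS1 left of it wherever they are filled. By this rule MMP14 in VECs, MMP2 in monocytes/macrophages, ADAMTS1 in SMMCs and TIMP3 in SCs are filled as well. These passed the filter on low counts through a single group, so their fill is not read as a call.

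The collagenase MMP1 was at 0 in all 10 muscle donors' FAPs and between 4.82 and 34.2 CPM, with a median of 19.1, in the 9 donors at passage 0. The groups did not overlap. Pooled over donors, 2299 UMIs were counted, at least 43.5-fold above the level that 3 counts over all muscle FAPs would give. No p is given, since MMP1 passed the filter on low counts through passage 0 alone. Monocytes/macrophages of passage 0 ranged from 7.28 CPM (1 UMI) to 85.2 with a median of 59.7 in 7 donors, from 52 UMIs in all. They overlapped FAPs, were higher than the same donor's FAPs in 4 of 7, and stood at least 40.1-fold above the same limit in muscle. SCs had 3.99 ± 2.42 CPM (n = 9), at least 3.49-fold above the limit, VECs 1.27 ± 1.55 (n = 9) and SMMCs 0.755 ± 0.969 (n = 7), the last under the limit that 3 counts give in muscle. In LECs 6 of 7 donors were at 0 and donor 9 was at 24.2 CPM.

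In single cells MMP1 was sparse. After thinning to 2000 UMIs, MMP1 was found in 2.49% of FAPs (141 of 5655; exact 95% binomial interval 2.10 to 2.93%), 9.56% of monocytes/macrophages (13 of 136; 5.19 to 15.8%), 0.614% of SCs (14 of 2279; 0.336 to 1.03%) and 0.242% of VECs (2 of 828; 0.0293 to 0.870%), and in 0 of 360 SMMCs, for which the exact interval reaches 1.02%. Intervals and limits cover counting error only, and cells of 1 donor are not replicates. Without thinning the shares were 15.9% of FAPs at a median of 24188 UMIs and 17.02% of monocytes/macrophages at 7568, against 1.56% of VECs at 12856 and 1.37% of SMMCs at 12669. FAP markers in those monocytes/macrophages were at 1333 CPM against 3504 in FAPs, and in SCs, where they had been 236 in muscle, at 1470. The part of neutrophil RNA in the macrophage value, and of FAP RNA in the macrophage and SC values of MMP1 and MMP3, was not tested.

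The stromelysin MMP3 was at 0 UMIs in muscle FAPs, SCs, VECs, SMMCs and monocytes/macrophages, and was counted in all 5 at passage 0. FAPs ranged from 2.44 to 18.4 CPM with a median of 7.14, at least 18.6-fold above the limit that 3 counts give in muscle. SCs ranged from 2.24 to 15.3 with a median of 4.68, at least 5.04-fold above theirs, and every one of the 9 donors had MMP3 UMIs in both types. Monocytes/macrophages stood at 12.4 ± 13.6 CPM (n = 7), from 13 UMIs in all and with 3 donors at 0. SMMCs stood at 4.40 ± 3.23 and VECs at 1.32 ± 1.12. LECs had 9.04 CPM from 4 UMIs in muscle and 1.62 CPM from 3 UMIs at passage 0 over all their cells. Among thinned FAPs, 8.51% of the 141 cells with an MMP1 UMI also had an MMP3 UMI, against 1.07% of those without, a description over cells of shared donors.

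The gelatinase MMP2 was higher at passage 0 in the 5 types other than FAPs. FAPs had 860 ± 171 CPM in muscle and 887 ± 52.4 at passage 0, a log2FC of 0.17 ± 0.09 (adjusted p = 0.0822). SCs went from a median of 188 to one of 948, with a range at passage 0 of 546 to 1209 that did not overlap muscle (log2FC 2.36 ± 0.15, adjusted p = 6.62e-13, higher in 9 of 9 donors). VECs went from 17.3 to 81.8 CPM in muscle to 211 to 375 (2.79 ± 0.20, 5.12e-12, 9 of 9), SMMCs from 12.8 to 128 to 200 to 621 (2.78 ± 0.30, 1.45e-07, 7 of 7) and LECs from 17.8 to 107 to 140 to 271 (1.65 ± 0.35, 0.000322, 3 of 3). Monocytes/macrophages had 0 to 45.2 CPM in muscle and 182 to 579 at passage 0, higher in 7 of 7 donors, and passed the filter through passage 0 alone.

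The FAP marker genes moved with MMP2 in part of these cells. Their sum was 236 CPM in muscle SCs and 1470 at passage 0, 198 and 673 in SMMCs, 157 and 1333 in monocytes/macrophages, 45.2 and 433 in LECs, and 294 and 320 in VECs. In SCs of SC cultures at passage 2, where 1.14% of cells were FAPs, MMP2 stood at 961 ± 333 CPM and the FAP marker sum at 1808. The part of FAP RNA in any of these MMP2 values was not tested.

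MMP14 was higher in VECs at passage 0, with 0 to 9.70 CPM in muscle and 34.0 to 86.4 at passage 0 (9 of 9 donors, no overlap), and passed the filter there through passage 0 alone. It was called higher in monocytes/macrophages, from 62.0 ± 34.3 to 151 ± 65.5 (log2FC 1.14 ± 0.29, adjusted p = 0.00151, 6 of 7 donors), and in SCs, from 16.7 ± 7.52 to 36.0 ± 12.4 (1.00 ± 0.30, 0.0041, 8 of 9). The SC value lies at the limit: with the donor as a block it was 0.99 and not called. FAPs had 68.6 ± 32.2 and 50.5 ± 8.46 CPM, with a log2FC of -0.35 ± 0.18 (adjusted p = 0.0867), lower in 8 of 9 donors.

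ADAMTS1 was lower at passage 0 in every type in which it was tested. VECs went from 428 to 948 CPM in muscle to 23.2 to 43.5 at passage 0 (log2FC -4.26 ± 0.17, adjusted p = 8.46e-17). SMMCs had 246 to 936 and 4.43 to 35.5, and passed the filter through muscle alone. FAPs went from 166 to 343 to 15.7 to 43.1 (-2.80 ± 0.16, 3.64e-13), LECs from 376 ± 295 to 57.8 ± 25.7 (-2.89 ± 0.48, 0.000393) and SCs from 118 ± 59.7 to 36.8 ± 11.4 (-1.76 ± 0.26, 4.56e-06). Each shared donor was lower at passage 0, and the groups overlapped in SCs and LECs alone. Levels that had differed between types by their means from 118 to 649 CPM lay between 21.1 and 57.8 at passage 0 in these 5 types.

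ADAMTS5 was called lower in FAPs and was not called in SCs. FAPs went from 60.5 to 171 CPM to 8.05 to 13.8, a log2FC of -3.13 ± 0.21 (adjusted p = 9.39e-12, lower in 9 of 9 donors, no overlap). SCs had 22.1 ± 16.2 and 42.7 ± 27.9 CPM, a log2FC of 0.95 ± 0.59 (adjusted p = 0.153), higher in 5 of 9 donors. In DESeq2 the SC value was 1.17 and called (adjusted p = 0.0136).

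TIMP2 fell in FAPs from 606 to 1523 CPM to 246 to 309, a log2FC of -1.78 ± 0.14 (adjusted p = 2.49e-11, lower in 9 of 9 donors, no overlap). It also fell in LECs, from 501 to 906 to 156 to 335 (-1.76 ± 0.19, 1.44e-08, 3 of 3). In SCs it stood at 555 ± 148 and 480 ± 69.8 (-0.25 ± 0.13, 0.0814), in SMMCs at 199 ± 53.9 and 213 ± 28.9 (0.05 ± 0.15, 0.796), in VECs at 69.3 ± 29.1 and 96.3 ± 24.1 (0.51 ± 0.20, 0.0245) and in monocytes/macrophages at 214 ± 64.6 and 301 ± 73.2 (0.44 ± 0.17, 0.0294), none of them called.

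TIMP3 was lower at passage 0 in SCs, VECs, SMMCs and LECs and was not called in FAPs. FAPs stood at 94.0 ± 20.9 and 83.6 ± 44.8 CPM (log2FC -0.10 ± 0.29, adjusted p = 0.766). SCs had 25.1 to 94.9 and 4.72 to 18.2, and passed the filter through muscle alone. VECs went from 70.4 to 305 to 27.1 to 66.0 (-2.36 ± 0.24, 1.52e-08), SMMCs from 352 to 714 to 28.8 to 187 (-2.03 ± 0.31, 1.7e-05) and LECs from 178 to 805 to 40.5 to 149 (-3.05 ± 0.36, 5.49e-06). Groups did not overlap in these 4 types, and all shared donors were lower.

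Counts of called members stand beside the share of all genes called, which was large in each of these comparisons. The share keeps genes that passed the filter through 1 group alone, so the counts are not made alike. Without the members that passed the filter through 1 group alone, 3 of 6 were called in FAPs where 43.4% of genes were, in SCs 3 of 5 (34.3%), in VECs 3 of 4 (35.1%), in SMMCs 2 of 3 (36.4%), in LECs 4 of 4 (29.6%) and in monocytes/macrophages 1 of 2 (34.6%). Under the filter, ADAMTS5 stood at 10.3 ± 9.17 CPM in muscle and 3.67 ± 2.03 at passage 0 in VECs, 9.49 ± 11.1 and 8.87 ± 5.33 in SMMCs, and 26.1 ± 42.6 and 1.53 ± 2.62 in LECs. MMP14, also under it in SMMCs and LECs, stood at 46.1 ± 23.2 and 30.1 ± 8.10 in the former and 61.2 ± 35.9 and 44.8 ± 19.3 in the latter.

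Whether the change differed between cell types was tested with an interaction term. Against SCs, FAPs changed differently in 6 of 6 members tested, where 20.2% of genes did: MMP2 (difference of log2FC -2.44), ADAMTS5 (-4.32), TIMP2 (-1.81), MMP14 (-1.61) and ADAMTS1 (-1.30) went lower in FAPs relative to SCs, and TIMP3 (1.94) higher. Against VECs it was again 6 of 6, where 25.8% of genes were called: MMP14 (-3.63), MMP2 (-2.73), TIMP2 (-2.41) and ADAMTS5 (-1.81), and in the other direction TIMP3 (2.13) and ADAMTS1 (1.34). Both tests share the FAP samples. In the fits of 1 type, TIMP3 passed the filter in SCs through muscle alone, and MMP14 in VECs through passage 0 alone. ADAMTS5 was under the filter in VECs. These members stand in the counts here, and passing through 1 group alone was not examined in the interaction fits. The 6 of 6 are therefore not read against the share of all genes. Thinned to equal counts, at 97693 UMIs per donor and type, 0 of 5 and 1 of 5 members tested were called. The differences were then -1.55 for MMP2, -2.79 for MMP14, -2.56 for TIMP2, -0.52 for ADAMTS1 and 0.33 for TIMP3 against SCs. Against VECs they were -2.65 for MMP2, -3.47 for MMP14, -4.03 for TIMP2 (the one called), 1.69 for ADAMTS1 and 0.36 for TIMP3. With the donor as a block 6 of 6 and 5 of 6 were called. ADAMTS5 against VECs was the call lost with the block (adjusted p = 0.0755) and also without the filter on low counts (0.0865).

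FAPs and SCs were also compared with each other at passage 0. Of 8 members tested between them, 3 were called, where 10.7% of genes were. MMP1 was higher in FAPs (log2FC 2.21 ± 0.43, adjusted p = 0.000363, 9 of 9 donors), as was TIMP3 (3.01 ± 0.36, 2.29e-06, 9 of 9). ADAMTS5, higher in FAPs of muscle, was lower in them here (-1.88 ± 0.34, 0.000209, 8 of 9). That call was lost when samples were thinned to equal counts (log2FC -1.36, adjusted p = 0.16). TIMP2 was lower in FAPs by 0.83 on the log2 scale (log2FC -0.83 ± 0.08, adjusted p = 7.51e-08) without overlap of the donors, short of the limit of 1. MMP2 (-0.05 ± 0.10), MMP3 (0.46 ± 0.43), MMP14 (0.51 ± 0.16) and ADAMTS1 (-0.40 ± 0.19) were not called.

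Other genes of the pathway, from 7 lists, were read in the same fits, and their counts stand against 43.4% of genes called in FAPs (1928 higher and 2069 lower of 9208), 34.3% in SCs and 35.1% in VECs. Listed genes that passed the filter through 1 group alone are again given by their levels and stand outside the counts, while the shares of all genes keep such genes. Among other MMPs, MMP9, a gelatinase of neutrophils and macrophages, had 0 UMIs in muscle FAPs and in muscle monocytes/macrophages of the donors compared. At passage 0 it stood at 9736 CPM on average in monocytes/macrophages, at least 8472-fold above the limit of 3 counts, and at 13.7 CPM in FAPs. The neutrophil marker sum in those monocytes/macrophages was 3516 CPM, with CSF3R at 0 UMIs. Pooled over donors, MMP9 also went from 0 UMIs in muscle to 4.70 CPM in SCs, 5.45 in SMMCs and 8.14 in LECs. The LEC value lies under the limit of 3 counts. The part of monocyte/macrophage RNA in the MMP9 values of other types was not tested. MMP12, the macrophage elastase, went from 0 to 943 CPM in monocytes/macrophages. MMP23 fell in FAPs (log2FC -3.87), 1 of 2 counted, where MMP16 had 28.7 to 98.3 CPM in muscle and 2.06 to 4.31 at passage 0. MMP28 fell in VECs (-1.22), the 1 counted there, and MMP15 had 25.04 to 96.5 and 2.16 to 8.98 CPM in them. MMP17, a membrane-anchored MMP, had 118 UMIs in SCs of muscle and 0 in FAPs, at least 108-fold more than the FAP limit.

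Of the other ADAMTS genes counted in FAPs, 3 of 4 fell at passage 0 (43.4% of all genes were called), among them ADAMTS15 (log2FC -1.25). ADAMTS12 had 12.1 to 64.8 CPM in muscle FAPs and 0.965 to 2.09 at passage 0. In SCs none could be counted. ADAMTS2, which trims procollagen, had 0 to 17.1 CPM in muscle SCs and 43.5 to 70.7 at passage 0, and ADAMTS20 had 90.8 to 217 and 9.05 to 14.4. ADAMTS4, an aggrecanase, rose in VECs (2.92) and fell in SMMCs (-3.66). Of 5 ADAM sheddases counted in FAPs, at the same share, 2 fell, led by ADAM15 (-3.99), while ADAM12 rose (2.30). ADAM33 had 13.6 to 39.6 CPM in muscle FAPs and 0.233 to 0.677 at passage 0, and ADAM19 32.8 to 98.04 and 1.99 to 3.44.

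Other protease inhibitors and cofactors fell in FAPs in 4 of 6 counted (43.4% of all genes were called), led by the procollagen proteinase enhancers PCOLCE2 (-3.86) and PCOLCE (-3.60). The broad protease inhibitor A2M had 478 to 1994 CPM in muscle FAPs and 0.564 to 3.38 at passage 0, lower in 9 of 9 donors. TIMP4, the remaining TIMP, fell in VECs (-3.79). Genes of the plasminogen and cathepsin systems, which activate pro-MMPs, went both ways. The urokinase receptor PLAUR rose in FAPs (1.16), SCs (3.00) and VECs (4.64). In FAPs 3 rose and 5 fell of 12 counted, in SCs 3 and 2 of 8, and in VECs 4 and 0 of 8.

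Matrix genes that these enzymes cut fell in FAPs in 18 of 20 tested and rose in none, with LAMA2 (-5.85), HSPG2 (-3.61) and FMOD (-3.29) leading. In SCs 5 rose, among them VCAN (4.25) and LUM (3.45), and 5 fell, among them LAMA2 (-3.24), of 16 counted. LUM is one of the 3 FAP markers, whose sum was 236 CPM in muscle SCs and 1470 at passage 0, and the part of FAP RNA in the SC values was not tested. Of the transcription factors and cytokines known to induce MMP1 and MMP3, the AP-1 gene FOS fell in FAPs (-6.23), SCs (-6.42) and VECs (-7.54), while IL6 rose in FAPs (5.42) and VECs (1.39) and the AP-1 member FOSL1 in VECs (2.03). FOSB had 53.8 to 427 CPM in muscle FAPs and 0.397 to 3.38 at passage 0, and FOSL1 0 to 1.16 and 12.4 to 26.3. IL6 in SCs had 0 to 4.13 CPM in muscle and 53.2 to 134 at passage 0. The counts for this list were 1 higher and 5 lower of 12 in FAPs (43.4% of all genes called), and 1 and 5 of 9 in SCs (34.3%).

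From passage 0 to passage 2 the FAPs of the 6 donors in FAP and unsorted cultures had less MMP1 and MMP3 and more MMP2, ADAMTS5 and both inhibitors. MMP1 fell from 11.2 to 34.2 CPM to 1.71 to 10.1 (log2FC -2.60 ± 0.44, adjusted p = 0.000153) and MMP3 from 5.66 to 18.4 to 0.0557 to 1.63 (-3.81 ± 0.56, 4.75e-05), each lower in 6 of 6 donors without overlap, although donor 4 had 11.2 and 10.1 CPM of MMP1. MMP2 rose from 786 to 971 to 1900 to 2654 (1.45 ± 0.09, 2.87e-08), ADAMTS5 from 8.05 to 13.7 to 48.7 to 103 (3.14 ± 0.21, 6.03e-08), TIMP2 from 246 to 275 to 498 to 1007 (1.84 ± 0.15, 2.58e-07) and TIMP3 from 81.2 ± 33.6 to 239 ± 94.8 (1.70 ± 0.31, 0.000249), each higher in 6 of 6 donors. MMP14 (0.84 ± 0.17, 0.000564) and ADAMTS1 (0.98 ± 0.25, 0.00382) fell short of the limit of 1. That made 6 of 8 called, where 23.3% of genes were.

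SCs of the 6 donors in SC and unsorted cultures changed in 2 of 6 members other than MMP3, where 8.73% of genes were called. TIMP2 rose from 481 ± 76.0 to 1383 ± 214 CPM (log2FC 1.53 ± 0.12, adjusted p = 5.67e-06), ADAMTS1 rose from 17.2 to 49.1 to 56.7 to 135 (1.26 ± 0.26, 0.00307). Thinned to equal counts, ADAMTS1 had a log2FC of 1.496 and an adjusted p of 0.0506. MMP3 had 2.24 to 15.3 CPM at passage 0 and 0 to 0.315 at passage 2, and passed the filter through passage 0 alone. Each of the 3 moved 1 way in 6 of 6 donors. MMP2 (0.56 ± 0.25), MMP14 (0.38 ± 0.28), ADAMTS5 (0.62 ± 0.52) and TIMP3 (1.13 ± 0.68) were not called. TIMP3 moved in opposite directions by culture. In unsorted donors 1, 2 and 9 it went from 8.12, 14.1 and 7.94 CPM to 47.8, 23.3 and 48.5. In SC culture donors 5, 6 and 10 it went from 4.72, 16.2 and 9.36 to 4.40, 5.94 and 5.58.

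Of the listed matrix substrates, 12 of 20 tested rose in FAPs between passages 0 and 2 and none fell, where 23.3% of all genes were called, led by FMOD (log2FC 4.56), COL1A1 (4.11) and COL1A2 (3.77). In SCs 9 rose and 2 fell of 19 (8.73% of all genes). IL6 fell in both types (-2.74 and -3.44), MMP9 fell in FAPs (-2.04), and MMP23 rose in both (4.29 and 4.43).

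**Figure D3:**
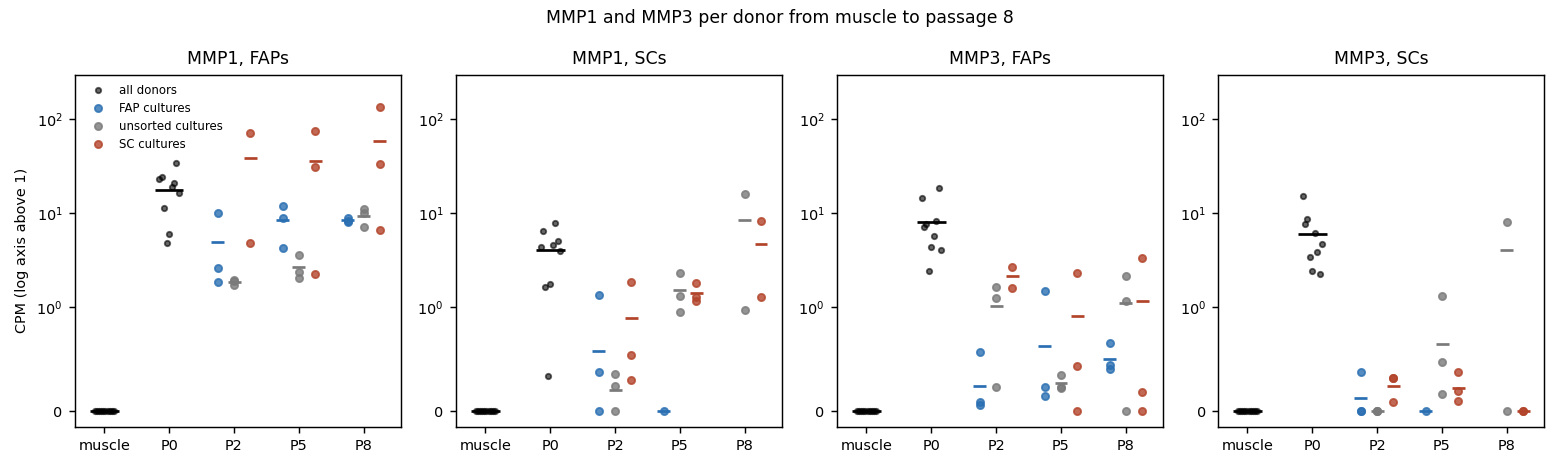
MMP1 and MMP3 level (CPM, y axis, logarithmic above 1) in FAPs and SCs of each donor from muscle to passage 8 (x axis), coloured by the kind of culture from passage 2, with means as lines. In FAPs MMP1 is at 0 in muscle, between 4.82 and 34.2 at passage 0, and from passage 2 widest apart among the donors of SC cultures. At passage 2 these are donor 5 with 3 UMIs in 19 cells and donor 10 with 27 UMIs in 12 cells.

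At passage 2 the FAPs of FAP cultures and the SCs of SC cultures, grown by different donors on different coatings, differed in 4 of 7 members tested, where 19.5% of genes were called. TIMP3 was at 160, 187 and 280 CPM in FAPs of donors 8, 7 and 4 against 4.40, 5.58 and 5.94 in SCs of donors 5, 10 and 6 (log2FC 5.47 ± 0.26, adjusted p = 0.000173). MMP14 was at 56.4, 68.9 and 87.3 in the FAPs against 27.2, 28.9 and 31.4 in the SCs (1.45 ± 0.17, 0.0017), MMP2 at 2041, 2096 and 2654 against 633, 950 and 1299 (1.41 ± 0.27, 0.00868), and ADAMTS5 at 48.7, 85.4 and 99.97 against 23.3, 24.6 and 43.3 (1.54 ± 0.36, 0.0191). No group overlapped for these 4. ADAMTS5 lost its call without donor 5, 7, 8 or 10 in turn, at a log2FC of 1.36, 1.45, 1.33 and 1.40 (adjusted p up to 0.0719). MMP1 had a log2FC of 2.57 ± 0.86 (adjusted p = 0.0591), called in DESeq2 (0.0065) and without donor 10 (0.0379).

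Within unsorted cultures, where FAPs and SCs of the same 3 donors grew together, 1 of 6 members other than MMP1 was called, where 12.9% of genes were. TIMP3 was at 127, 309 and 369 CPM in FAPs of donors 2, 1 and 9 against 23.3, 47.8 and 48.5 in their SCs (log2FC 2.82 ± 0.45, adjusted p = 0.00543). MMP1 was at 1.71 to 1.92 against 0 to 0.359, and passed the filter through FAPs alone. ADAMTS5 stood at 88.5 ± 12.6 and 90.5 ± 44.0 (0.06 ± 0.37) and MMP2 at 2102 ± 267 and 1660 ± 252 (0.45 ± 0.16), neither called. TIMP2 was lower in FAPs of each donor, at 828 ± 93.6 against 1344 ± 140 (-0.59 ± 0.13, adjusted p = 0.0127), under the limit of 1.

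TIMP3 in SCs thus differed in level between cultures, with 5.31 ± 0.804 CPM in SC cultures, 39.1 ± 22.7 in FAP cultures and 39.9 ± 14.3 in unsorted cultures. FAPs made up 1.14%, 94.0% and 82.4% of the cells in those cultures, and the FAP marker DCN stood at 1280, 3254 and 3420 CPM in the same SCs. The part of FAP RNA in these values was not tested.

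**Figure D4:**
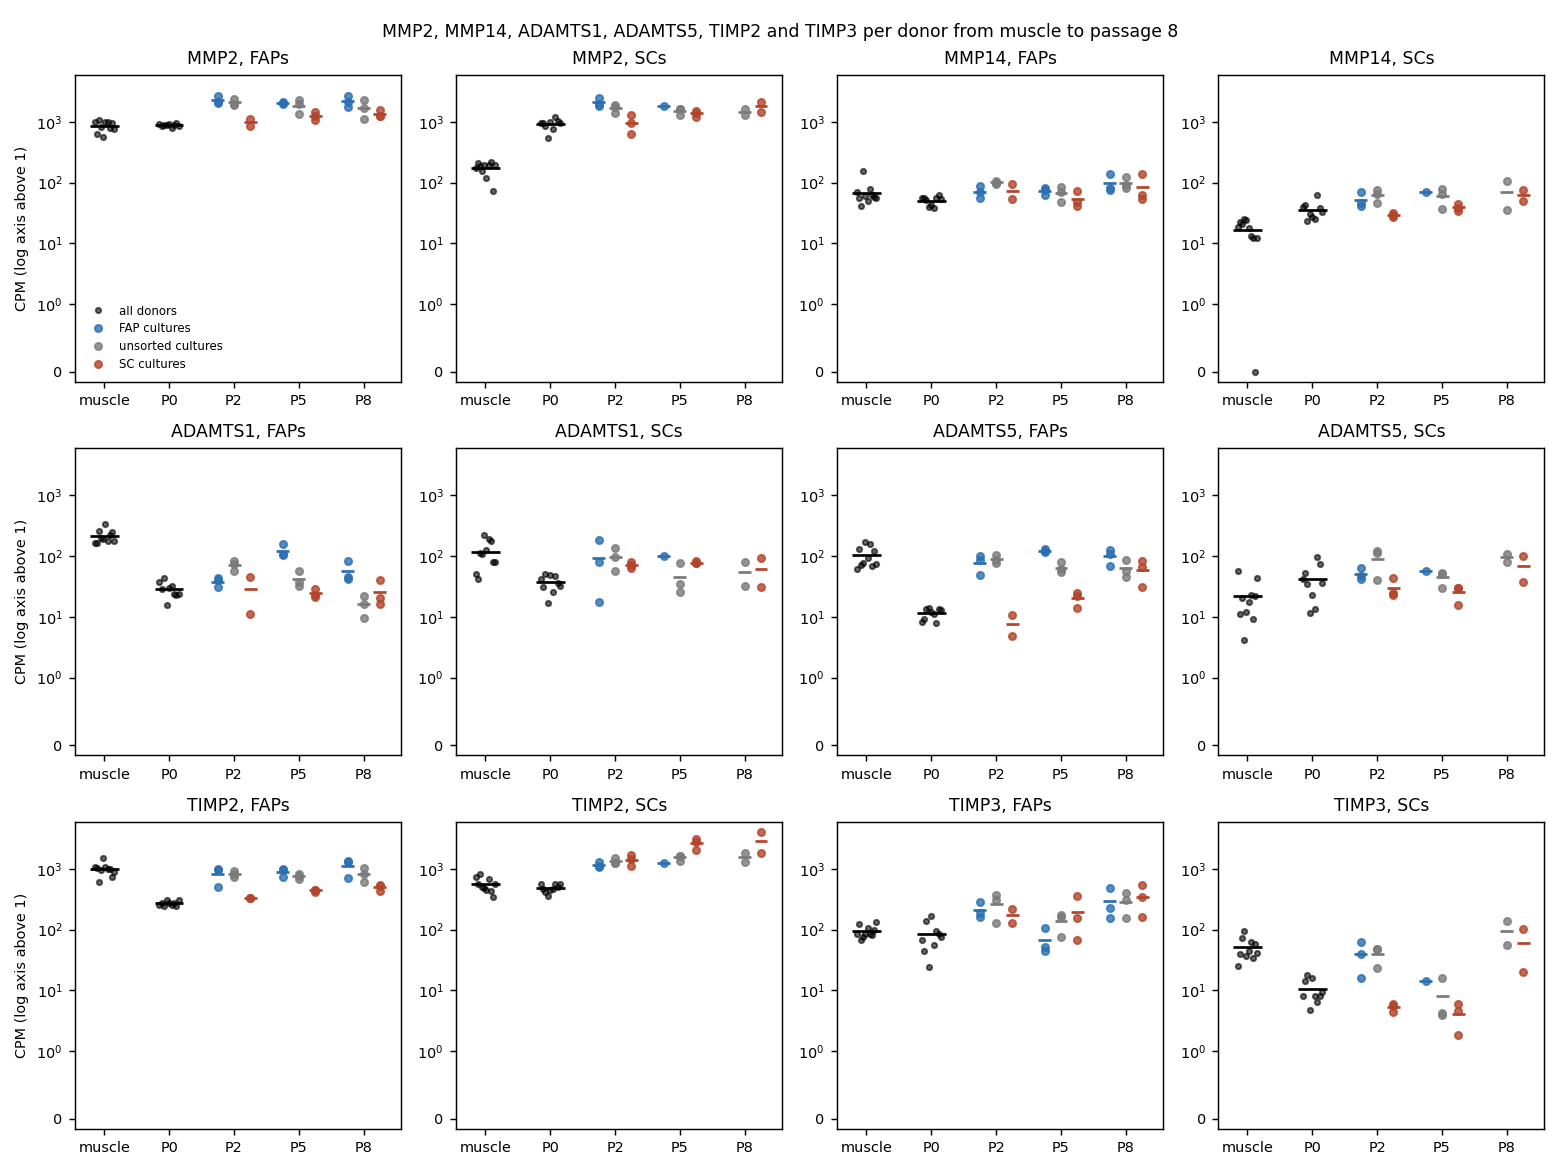
Level of MMP2, MMP14, ADAMTS1, ADAMTS5, TIMP2 and TIMP3 (CPM, y axis, logarithmic above 1) in FAPs and SCs of each donor from muscle to passage 8 (x axis), coloured by the kind of culture from passage 2, with means as lines. In FAPs of SC cultures (red) ADAMTS1, ADAMTS5 and TIMP2 lie below those of FAP cultures (blue) at passage 5, and TIMP2 in SCs has its highest mean in SC cultures at passages 2, 5 and 8.

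Within 1 kind of culture few members were called with passage. The same donors were sampled at each passage, and these fits are unpaired. With the donor as a block more genes were called in FAP cultures at passages 5 and 8. The lack of a call is therefore not read as a lack of change. In FAP cultures ADAMTS1 rose from 30.6, 40.5 and 42.9 CPM at passage 2 to 106, 156 and 109 at passage 5 in donors 4, 7 and 8 (log2FC 1.81 ± 0.22, adjusted p = 0.0333), the only 1 of 7 members called, where 0.797% of genes were. With any 1 donor left out the log2FC was 1.67 to 2.00 and not called (adjusted p from 0.0708 to 0.435), in fits that called 2, 0 and 0 of all genes. At passage 8 it stood at 41.9, 83.0 and 45.3. TIMP3 stood at 280, 187 and 160 at passage 2 and 106, 52.5 and 44.8 at passage 5, a log2FC of -1.51 ± 0.36 that was not called (adjusted p = 0.0711) but was with the donor as a block (-1.58, 0.00428) and in DESeq2 (-1.52, 0.000342). Passage 8 was at 490, 225 and 158, and between passages 8 and 2 the edgeR fit called 0 of 7 members, where 0.0361% of genes were.

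In SC cultures 0 of 7 members were called between passages 5 and 2, where 3.01% of genes were. TIMP2 came nearest, at 1718, 1431 and 1118 CPM in SCs of donors 5, 6 and 10 at passage 2 and 3127, 2039 and 2808 at passage 5 (log2FC 0.95 ± 0.22, adjusted p = 0.0536). At passage 8 donors 6 and 10 had 1817 and 4005. MMP2 stood at 961 ± 333, 1381 ± 161 and, in those donors, 1790 ± 471 CPM.

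FAPs were also present in SC cultures, and ADAMTS1, ADAMTS5 and TIMP2 were lower in them than in FAPs of FAP cultures. They were 1.14% of cells at passage 2, 18.7% at passage 5 and 93.2% at passage 8, and at passage 5 they were compared with FAPs of FAP cultures. Of 7 members, 3 were called, all lower, where 15.9% of genes were called. ADAMTS5 stood at 22.1, 24.8 and 14.2 CPM in donors 5, 6 and 10 against 123, 118 and 129 in donors 4, 7 and 8 (log2FC -2.78 ± 0.16, adjusted p = 1.49e-05). ADAMTS1 stood at 22.7, 21.4 and 28.9 against 106, 156 and 109 (-2.53 ± 0.20, 8.51e-05), and TIMP2 at 453, 456 and 417 against 739, 1004 and 962 (-1.23 ± 0.13, 0.000173). None of the 3 overlapped, and each remained called with any 1 donor left out. Thinned to 885831 UMIs per donor, the log2FC of ADAMTS5 was -2.25, of ADAMTS1 -2.28 and of TIMP2 -1.28, and none of the 3 was called (adjusted p = 0.258, 0.443 and 0.0639).

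MMP2 in the same cells was also lower without overlap, at 1084, 1241 and 1455 CPM against 2120, 1975 and 2057, with a log2FC of -0.91 ± 0.10 (adjusted p = 0.000237) under the limit of 1. MMP1 was uneven in SC cultures, at 31.3, 2.26 and 74.8 CPM in donors 5, 6 and 10 against 4.24, 12.01 and 8.89 in FAP cultures (2.04 ± 0.81, adjusted p = 0.105), and it was called without donor 6 (2.38, 0.0215). At passage 8 the same donors had 33.1, 6.59 and 137 CPM, against 7.99, 8.90 and 8.14. TIMP3 (1.18 ± 0.70, 0.245) and MMP14 (-0.67 ± 0.20, 0.0302) were not called.

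At passage 5 these FAPs of SC cultures also held less of the FAP markers, with PDGFRA at 64.7, DCN at 2162 and LUM at 1154 CPM. FAPs of FAP cultures had 538, 12979 and 4695. SCs of the same SC cultures had 27.6, 1415 and 1028, nearer to these FAPs. Mean ADAMTS5 (20.4 in these FAPs and 25.2 in those SCs) and MMP2 (1260 and 1381) overlapped. ADAMTS1 (24.3 and 78.1), TIMP2 (442 and 2658) and TIMP3 (192 and 4.08) lay further apart. The part of SC RNA in these FAPs was not tested. At passage 8 ADAMTS1 and TIMP2 were still lower without overlap between the cultures, and ADAMTS5 overlapped, at 65.3, 83.9 and 30.7 against 68.3, 109 and 125 CPM. Of the listed matrix substrates 7 of 20 tested were lower at passage 5 and none higher (15.9% of all genes were called), led by FMOD (-3.04), COL3A1 (-2.86) and DCN (-2.64), and among other MMPs MMP23 (-3.52), MMP27 (-3.19) and MMP19 (-1.10) were lower and MMP28 (3.79) higher.

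FAPs of unsorted cultures were compared with those of FAP cultures at passage 5 as well. ADAMTS1 was the 1 member of 7 called, where 1.04% of genes were, at 37.2, 32.4 and 57.8 CPM in donors 1, 2 and 9 (log2FC -1.49 ± 0.26, adjusted p = 0.0468), and with any 1 donor left out the log2FC was between -1.77 and -1.26 and not called (adjusted p up to 0.138), in fits that called 1 to 170 of all genes. ADAMTS5 stood at 55.4, 60.7 and 78.6 CPM (-0.87 ± 0.13, 0.0388), under the limit of 1. MMP1 stood at 3.55, 2.05 and 2.36 CPM, below the FAP cultures without overlap (-1.63 ± 0.42, 0.0842), and was called in DESeq2 (-1.62, 0.00219) and without donor 4 (-1.96, 0.0446). Both comparisons share the FAP culture samples.

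Age class was compared in FAPs, 5 calves against 5 adults in muscle and 5 against 4 at passage 0. No member was called in muscle (0 of 6 tested, where 1.32% of genes were), and the largest difference was ADAMTS5, at 122 ± 45.0 CPM in calves and 82.8 ± 24.5 in adults (log2FC 0.69 ± 0.26, adjusted p = 0.193). At passage 0 edgeR called 0 of 8 members and 0% of genes, with 575 genes at an unadjusted p below 0.05 and 8 genes called by DESeq2. MMP3 had the largest difference there, at 5.39 ± 2.16 and 11.3 ± 6.26 CPM (-1.09 ± 0.43, 0.967).

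Across 29 groups of timepoint, cell type and culture, the genes whose mean log2(CPM + 1) followed each member most closely were taken among 9234 genes, by Pearson correlation, as a description of groups that share libraries and donors. MMP2 was followed by P3H4 (r = 0.966), GPX8 (0.947) and FKBP10 (0.945), of which P3H4 and FKBP10 belong to the collagen-modifying machinery of the endoplasmic reticulum. ADAMTS5 was followed by GLB1L (0.931), PLA2R1 (0.930) and SEMA3C (0.926), ADAMTS1 by the caveolar gene CAVIN1 (0.914), MPDZ (0.903) and TCAF1 (0.894), TIMP2 by PLXDC2 (0.906), EIF4G3 (0.901) and PLXNB2 (0.896), and TIMP3 by TINAGL1 (0.856), PLAC9 (0.804) and TRIOBP (0.800). MMP14 was followed by ARHGEF40 (0.879), PLBD2 (0.867) and VPS18 (0.860). MMP1 was followed by SEC11C (0.781), the cytokine IL6 (0.776) and SH3D21 (0.772), and MMP3 lay under the level limit of 5 CPM. Among the members themselves MMP2 and ADAMTS5 were closest (r = 0.834), followed by ADAMTS5 and TIMP2 (0.755) and MMP2 and TIMP2 (0.725), whereas the inhibitors TIMP2 and TIMP3 had an r of -0.119.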

How the data were processed

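Single cells of bovine muscle and its cultures were measured with the 10x Chromium 3′ kit in 5 libraries. Per the labels and the study's methods, the authors aligned reads to ARS-UCD1.2 with Cell Ranger 6.0.1 and deposited UMI counts per gene and barcode. The deposited cell table gives each cell's donor (demuxlet singlets within 3 median absolute deviations), type label and the deposited percent of mitochondrial UMIs (library medians 2.11 to 3.81). Doublets of 1 donor are not found this way, and no other caller was run. The authors' corrected expression table was not used. Reads shared by near-identical genes were not examined.

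Raw counts were summed per timepoint, donor and type (at least 10 cells) and tested with edgeR 4.0.16 (R 4.3.3; TMM, filterByExpr, robust quasi-likelihood F test, Benjamini-Hochberg over all genes tested); SE is the absolute log2FC over the root of F. Calls needed adjusted p below 0.05 and absolute log2FC above 1. The filter keeps genes with a CPM of at least 10 counts at the median library size in as many donors as the smaller group holds. Members and listed genes with no donor of the lower group at that level are given without p. They are left out of the counts, but the shares of all genes called keep all genes tested. Limits for 0 counts use 3 counts over the group. Tables were made with Python 3.11.15, and the scripts were tested on simulated data. Alternatives were DESeq2 1.42.0, library size scaling, no filter, at least 30 cells, thinning to equal counts, sex as a covariate, the donor as a block, and leaving out donors. The same animal gives donors their pairing. Their deviations in muscle and passage 0 correlated at a median r of 0.102 in FAPs, 0.00726 in SCs and 0.0820 in VECs. This was not examined between later passages. Donors are the replicates and share each timepoint's library, so timepoints have 1 library each, and p-values measure the spread between donors.

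Named genes were the members, up to 3 called genes per direction with the largest absolute log2FC in each list, and the 3 most alike genes per member. MMP17, MMP28 and the recurring PLAUR, IL6, FOSL1 and MMP12 were also chosen after their values were seen where the rule did not name them. Members and lists were chosen with earlier results of these data known. Age class, sex and culture of donors come from the study's design text and donor table. A gene of the activator list is not reported here.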

Additional observations from a re-analysis of the deposited data

Results flagged for a closer look

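The change from muscle to passage 0 differed between cell types in 6 of 6 members tested against SCs and 6 of 6 against VECs by the interaction term of the edgeR fit, where 20.2% and 25.8% of all genes were called. Thinned to equal counts 0 of 5 and 1 of 5 were called, with differences of -1.55 for MMP2, -2.79 for MMP14, -2.56 for TIMP2, -0.52 for ADAMTS1 and 0.33 for TIMP3 against SCs, and of -2.65, -3.47, -4.03, 1.69 and 0.36 in that order against VECs. With the donor as a block ADAMTS5 against VECs was not (adjusted p = 0.0755). Relative to SCs, FAPs differed by a log2FC of -4.32 for ADAMTS5, -2.44 for MMP2, -1.81 for TIMP2, -1.61 for MMP14, -1.30 for ADAMTS1 and 1.94 for TIMP3. Relative to VECs they differed by -3.63 for MMP14, -2.73 for MMP2, -2.41 for TIMP2, -1.81 for ADAMTS5, 1.34 for ADAMTS1 and 2.13 for TIMP3. The 2 sets share the FAP samples. They include TIMP3 and MMP14, which in the fits of SCs and of VECs passed the filter through 1 group alone, and ADAMTS5, under the filter in VECs. Passing through 1 group alone was not examined in the interaction fits, so the 6 of 6 are not read against the share of all genes.

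A donor stood apart from the others in 15 of 67 groups of 4 to 10 donors by Dixon's criterion. Its rate of about 1 in 20 groups by chance holds for normally distributed values, which was not examined for these CPM. The 15 of 67 are therefore not read against it. Some flags rest on few UMIs: 5 for TIMP3 in lymphocytes of donor 3, 0 for MMP14 in SCs of donor 9, and 12 for TIMP3 in LECs of donor 6. In muscle these were donor 5 for MMP2 in SMMCs (128 CPM) and for TIMP2 in FAPs (1523 CPM), donor 4 for MMP14 in FAPs (155 CPM), donor 9 for MMP14 in SCs (0 CPM), donor 6 for ADAMTS1 in FAPs (343 CPM) and for TIMP2 in lymphocytes (362 CPM), and donor 3 for TIMP3 in lymphocytes (117 CPM). At passage 0 they were donor 6 for MMP2 in SMMCs (621 CPM), ADAMTS1 in LECs (112 CPM) and TIMP3 in LECs (149 CPM), donor 1 for MMP3 in SCs (15.3 CPM), donor 7 for MMP14 in monocytes/macrophages (284 CPM), donor 8 for MMP14 in SCs (63.5 CPM), and donor 2 for MMP14 in VECs (86.4 CPM) and ADAMTS5 in VECs (8.29 CPM). Donor 6 accounted for 5 of the 15.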

How the results depend on the processing

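Of 1126 recomputed values of members, 1082 kept their direction and side of the threshold, 33 lost the call, 11 gained one and 0 called values reversed; 22 values called under neither setting changed sign. Counts here include members that passed the filter through 1 group alone. Thinning to the smallest donor's counts left fewer members called in these comparisons, and fewer tested in each except FAPs of SC cultures (7 of 7 tested): 3 in FAPs, 1 in SCs, 3 in VECs, 2 in SMMCs, 3 in LECs and 1 in monocytes/macrophages (passage 0 against muscle), 2 between FAPs and SCs in muscle, 1 at passage 0 and 1 in unsorted cultures, 1 in SCs at passage 2, 0 in FAPs of SC cultures, and 0 and 1 for the differences of changes against SCs and VECs; counts down to 56121 UMIs per donor limit this setting. DESeq2 called 7 members in SCs and 5 in monocytes/macrophages at passage 0, and 2 each in FAP cultures at passage 5 and in FAPs of unsorted cultures; no filter called 7 in VECs, 6 in monocytes/macrophages and 0 in FAPs of unsorted cultures, the cause was not tested. With the donor as a replicate block 2 were called in FAP cultures at passage 5; in SCs MMP14 (log2FC 0.99) and in the difference against VECs ADAMTS5 (-1.81, adjusted p = 0.0755) lost the call, and it changed no other call. Leaving out 1 donor gave 0 to 0 in FAP cultures at passage 5 (main value 1), 1 to 3 in unsorted cultures at passage 2 (1 without donor 1) and 0 to 1 in FAPs of unsorted cultures at passage 5. The setting of 30 cells could not be fitted for LECs and monocytes/macrophages. All genes called differed from the main count by over 1.5 times in 12 of 21 comparisons with DESeq2, 11 of 21 without the filter, 15 of 21 thinned and 2 of 16 with the block (94 and 646 in FAP cultures at passage 5, 4 and 244 at passage 8). Library size scaling gave 1268 higher and 1468 lower in place of 1551 and 1120 for FAPs at passage 2, 39 and 83 in place of 46 and 48 in FAP cultures at passage 5, 1260 and 680 in place of 920 and 910 for FAPs of SC cultures, and 23 and 74 in place of 35 and 46 for age in muscle; DESeq2 gave 1445 and 1142 in place of 596 and 291 for FAPs against SCs in muscle, 157 and 391 in FAP cultures at passage 5, and 211 and 321 in place of 103 and 264 in SC cultures. The median log2FC of all genes moved from 0.06 to 0.39 without the filter in LECs, from 0.03 to -0.30 when thinned and to -0.21 with DESeq2 in FAPs at passage 0, and, with library size scaling, from -0.03 to 0.16 in FAPs of SC cultures at passage 5.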
